A study of Homo sapiens with 6 samples.

Results

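The genes described here are those of NF-kappa-B signalling and of the inflammatory cytokines linked to it. The 46 genes were listed by symbol, with earlier results of these data known. Of them, 45 stood among the 15376 coding genes of the deposited table. They comprised 10 secreted factors, 32 regulators (subunits, inhibitors, kinases, adaptors and linked transcription factors) and 3 effector genes; CCL2 was not analysed here. RNA sequencing measured transcripts of PC9ER, a line from a human lung adenocarcinoma that depends on the growth factor receptor EGFR and has become resistant to gefitinib, a drug that blocks EGFR. There were 3 libraries from cells exposed to gefitinib at 1 µM for a final 6 h, and 3 from control cells given vehicle. The labels repeat a single protocol text for every sample. It gives growth in 10% fetal calf serum, 72 h of DMSO where a Notch inhibitor would otherwise stand, and serum withdrawal overnight. The text does not state which of its last steps control cells went through, or whether they were also without serum. Drug and serum therefore cannot be told apart for any difference reported here. Replicates are not described as separate cultures, and the p-values therefore measure the spread between these libraries, which may be technical.

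NF-kappa-B is a family of dimeric transcription factors held in the cytoplasm by I-kappa-B proteins. Receptors for TNF, interleukin 1 and bacterial products act through TRAF, RIPK and IRAK adaptors on the IKK kinase complex, which marks I-kappa-B for destruction (the canonical route), while the kinase NIK drives processing of p100 to p52 for partnership with RelB (the non-canonical route). The pathway switches on genes for chemokines, cytokines and adhesion molecules, and also for its own inhibitors, among them I-kappa-B alpha and A20. In epithelial tumour cells it is known for chemokine output and for protection from cell death.

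Values are the authors' read counts per gene after scaling every library to the same total, called normalized reads below. Coding reads ranged from 13674237 to 38581498 in the gefitinib libraries and from 16211544 to 25639050 in the control libraries, so that 1 read was worth between 0.469 and 1.32 normalized reads. The summed level of the 10 epithelial markers found was 71734 to 74739 in gefitinib libraries and 86250 to 124411 in control libraries; NKX2-1 was not analysed here. The 9 blood markers summed to 45.0 to 58.1 with gefitinib and 65.6 to 86.8 in controls and the 5 fibroblast markers found to 47.6 to 68.0 with gefitinib and 32.4 to 71.4 in controls. Of 4 endothelial markers found, which summed to 149 to 177 with gefitinib and 1180 to 1360 in controls, only PECAM1 passed the test, and it was lower with gefitinib. The part of these shifts in the results was not tested.

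Of the 45 genes, 9 were higher and 24 lower with gefitinib at an adjusted p under 0.05 (limma-trend on log2(normalized reads + 1), Benjamini-Hochberg over all tested genes), and 12 did not pass. Over all 15229 tested genes 51.1% passed, 28.3% higher and 22.8% lower, so the number passing is read against a broad background. On recovered reads edgeR called 8 higher and 21 lower of the 35 it tested, against 61.3% of all genes it tested (30.5% higher, 30.8% lower). For 9 higher and 23 lower of the 45, gefitinib and control values did not overlap, against 58% of all genes (32.3% higher, 25.7% lower). The median log2 difference, gefitinib minus control, was -0.76 over the 45 genes and 0.10 over all tested genes. In bulk RNA, fewer cells expressing a gene and less of its RNA per cell cannot be told apart. The 33 genes with a mean of 50 normalized reads or more divided into 7 higher, 19 lower and 7 not passing; among all genes at that level 61.2% passed, 33% higher and 28.3% lower. The other 12, which include 9 of the 10 secreted factors, rest on few reads and are given as reads.

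**Figure D1:**
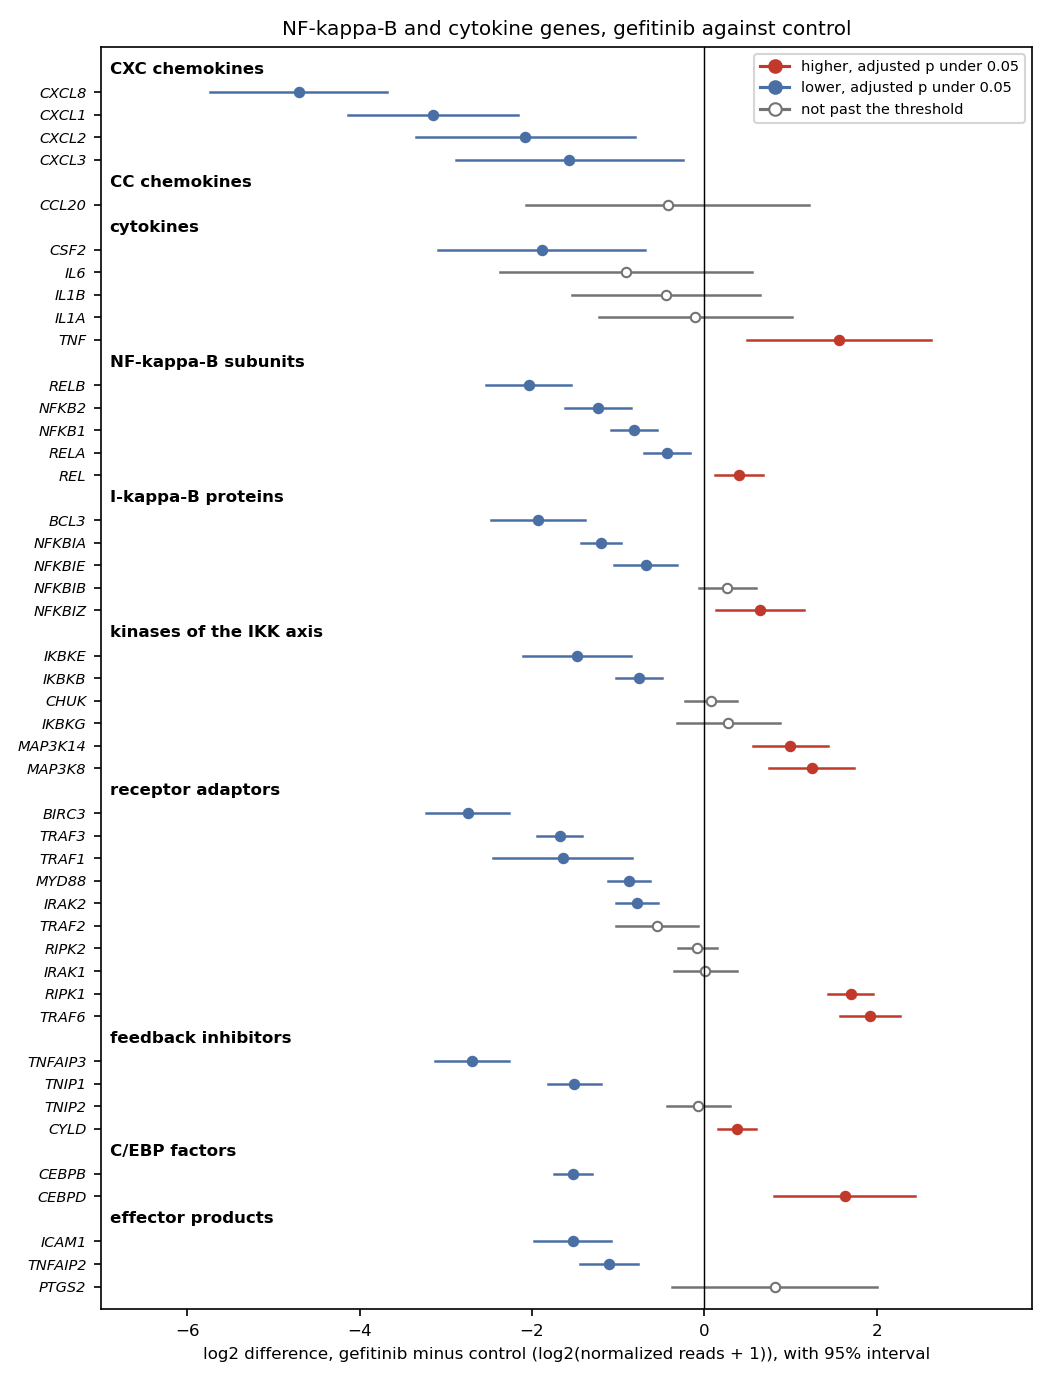
Log2 difference (x axis, gefitinib minus control, on the log2(normalized reads + 1) scale) with its 95% interval for each of the 45 genes, grouped by role; filled points passed the test and open points did not. All 4 CXC chemokine genes lie left of 0. The group labelled kinases of the IKK axis, which includes IKBKG, lies on both sides, with a median of 0.17.

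Of the 10 secreted factors, 5 were lower (CXCL1, CXCL2, CXCL3, CXCL8 and CSF2), 1 was higher (TNF) and 4 did not pass. The 4 CXC chemokine genes, whose products attract neutrophils, lie within 359 kb of chromosome 4 (CXCL8 at 73740506 to 73743716, CXCL2 at 74097035 to 74099293, GRCh38). CXCL8, which encodes interleukin 8, had 14.6, 3.61 and 3.75 normalized reads in gefitinib libraries, against 190.5, 165 and 190.2 in control libraries. Gefitinib replicate 1 was the highest of its group, and every control library lay far above it. The log2 difference was -4.71 ± 0.46 (SE), adjusted p = 3.4e-05 by limma, and -4.04 to -5.29 over all alternatives.

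The other CXC genes were read rarely. CXCL1 had 0, 1 and 0 reads with gefitinib, against 18, 6 and 12 in control libraries, a depth-corrected control-to-gefitinib ratio of 42.9 (exact 95% interval 7.23 to 1743, counting error only; limma adjusted p = 0.00028). CXCL2 had 0, 0 and 5 reads with gefitinib and 6, 8 and 4 in controls, a ratio of 4.29 (1.54 to 14.8; limma adjusted p = 0.012). For CXCL3 there were 2, 0 and 0 reads with gefitinib and 7, 4 and 2 in controls, a ratio of 7.75 (1.76 to 70.8; limma adjusted p = 0.048), and its normalized values overlapped between the groups. CXCL1 alone of these 3 stayed past the threshold under every alternative in which it was tested. CXCL2 did not pass without control replicate 2 (limma adjusted p = 0.053) or gefitinib replicate 2 (0.051). CXCL3 did not without control replicates 1 (limma adjusted p = 0.11) or 2 (0.13) or gefitinib replicates 2 (0.16) or 3 (0.16), nor with a pseudocount of 5 (0.054). Neither passed on recovered reads with edgeR and no count filter (adjusted p = 0.055 and 0.059) or with DESeq2 (0.11 and 0.19). The 3 are paralogs, with 67.5% to 80.4% identity between their longest coding transcripts, so reads could have been split between them.

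Promoter sequences of 8 genes that changed are shown, chosen because each holds letters of the kappa-B kind, the sequence NF-kappa-B binds. They are the 150 bases before the RefSeq start (GRCh38.p14), 5′ to 3′ on the strand of the gene. Capitals mark matches to GGGNNNTTCC or GGAANTTCC on either strand, with overlapping matches joined. The first 6 belong to genes that were lower with gefitinib and the last 2, REL and MAP3K8, to genes that were higher.
CXCL8 (chr4:73740419-73740568, plus strand): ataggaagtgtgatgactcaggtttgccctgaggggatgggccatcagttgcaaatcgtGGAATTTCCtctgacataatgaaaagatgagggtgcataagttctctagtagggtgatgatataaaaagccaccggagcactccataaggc
CXCL1 (chr4:73869243-73869392, plus strand): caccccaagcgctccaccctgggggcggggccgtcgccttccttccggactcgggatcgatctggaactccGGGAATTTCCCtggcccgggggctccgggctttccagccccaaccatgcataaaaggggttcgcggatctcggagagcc
CXCL2 (chr4:74099196-74099345, minus strand): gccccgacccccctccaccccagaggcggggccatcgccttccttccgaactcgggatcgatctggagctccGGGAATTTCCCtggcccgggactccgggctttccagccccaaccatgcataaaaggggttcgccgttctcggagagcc
CXCL3 (chr4:74038690-74038839, minus strand): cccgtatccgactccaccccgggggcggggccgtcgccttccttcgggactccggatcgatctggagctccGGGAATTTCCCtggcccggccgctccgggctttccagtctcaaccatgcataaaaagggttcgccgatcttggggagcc
NFKBIA (chr14:35404750-35404899, minus strand): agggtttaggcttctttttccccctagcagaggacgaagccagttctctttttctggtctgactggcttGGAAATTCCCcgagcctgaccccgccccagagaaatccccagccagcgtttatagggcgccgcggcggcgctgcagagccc
TNFAIP3 (chr6:137867109-137867258, plus strand): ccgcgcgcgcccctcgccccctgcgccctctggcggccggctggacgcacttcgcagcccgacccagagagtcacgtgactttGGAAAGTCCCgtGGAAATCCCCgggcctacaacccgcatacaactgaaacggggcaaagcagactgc
REL (chr2:60881424-60881573, plus strand): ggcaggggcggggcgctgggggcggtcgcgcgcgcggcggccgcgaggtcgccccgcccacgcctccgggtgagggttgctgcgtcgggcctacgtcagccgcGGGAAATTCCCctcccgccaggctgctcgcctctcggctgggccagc
MAP3K8 (chr10:30433871-30434020, plus strand): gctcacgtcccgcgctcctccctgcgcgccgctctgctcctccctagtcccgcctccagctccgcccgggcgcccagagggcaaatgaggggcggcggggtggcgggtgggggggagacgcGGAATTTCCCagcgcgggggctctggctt

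CXCL1, CXCL2 and CXCL3 share the letters GGGAATTTCC, which begin 79, 78 and 79 bases before their starts, and these stretches are 86.3% to 88.8% identical to each other. In CXCL8 the match GGAATTTCC begins 91 bases before the start. MAP3K8, which was higher with gefitinib, holds the same GGAATTTCC 29 bases before its start. Over the longer RefSeq window of 250 bases before to 50 after a start, 40 of the 45 genes had an entry, with 60 promoters in all, and 21 of these promoters (35%) held either motif on either strand, against 7.02% of all 35116 promoters in the table. GGGNNNTTCC alone was in 31.7% of the 60 and 6.52% of all, and GGAANTTCC, which can overlap it and reads the same on both strands, in 20% and 0.965%. Counted by gene among those with an entry, a match stood in 4 of the 8 higher genes (CYLD, MAP3K8, NFKBIZ and REL), in 12 of the 21 lower genes and in 3 of the 11 that did not pass (CCL20, IL6 and NFKBIB). Over all genes with an entry 8.42% had a match, and 10.6% of those in the deposited table did. A match describes letters and shows no binding. The genes were listed for their link to NF-kappa-B, so a share above that of all promoters is not a result about gefitinib.

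**Figure D2:**
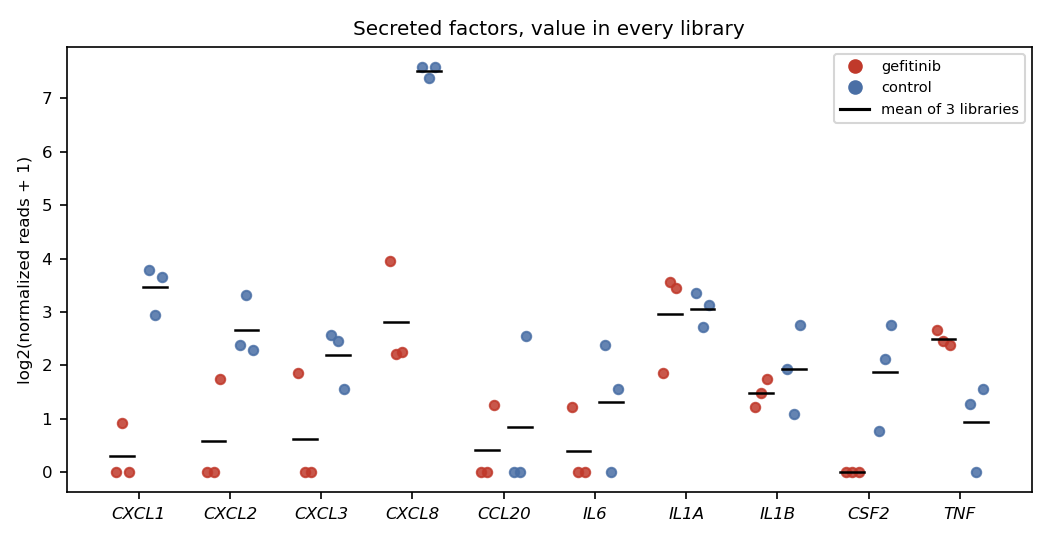
Level of each of the 10 secreted factors (y axis, log2(normalized reads + 1)) in every library, gefitinib left and control right for each gene, with black bars at the mean of 3 libraries. CXCL8 shows the widest gap, the 3 gefitinib libraries of CSF2 lie at 0, and TNF is the gene whose gefitinib libraries all lie above the control libraries.

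Among the cytokines, CSF2, which encodes the myeloid growth factor GM-CSF, had 0 reads in all 3 gefitinib libraries, against 1, 3 and 6 reads in control libraries. Setting the gefitinib group at a floor of 3 counts gave a depth-corrected control-to-gefitinib ratio of 3.98. That value leaves out the counting error of the control reads and is not an exact bound. The limma adjusted p was 0.015, and it was 0.054 without control replicate 2 and 0.058 without control replicate 3. TNF, at 31575567 to 31578336 on chromosome 6, had 4, 5 and 9 reads with gefitinib, against 2, 0 and 2 in controls. Its depth-corrected gefitinib-to-control ratio was 3.77 (exact 95% interval 1.24 to 15.3). The groups did not overlap and the limma adjusted p was 0.021, but TNF did not pass on recovered reads with edgeR (adjusted p = 0.091, no count filter) or DESeq2 (adjusted p = 0.22). Nor did it pass in limma without control replicate 2 (adjusted p = 0.069) or any gefitinib replicate (0.054 to 0.057).

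LTA, which encodes lymphotoxin alpha and ends 1242 bases before TNF on the same strand, was chosen for mention after its values were seen. It had 13, 25 and 49 reads with gefitinib, against 1, 0 and 1 in control libraries. Its gefitinib-to-control ratio was 36.5 (exact 95% interval 9.80 to 306, limma adjusted p = 4.6e-05). LTB, the next gene, had 0, 0 and 1 reads with gefitinib and 0, 2 and 1 in controls and did not pass. The fever cytokines IL1A and IL1B did not pass either, with 35 reads with gefitinib and 26 in controls for IL1A, and 8 and 11 for IL1B. IL6 had 1 read with gefitinib and 8 in controls, 6 of them in control replicate 1. Its depth-corrected control-to-gefitinib ratio was 9.54 (exact 95% interval 1.28 to 423, counting error only), while control replicate 2 and 2 of the gefitinib libraries had none and the limma adjusted p was 0.28. CCL20, a chemokine for cells bearing CCR6, was read in 1 library of each group, with 3 reads in gefitinib replicate 3 and 5 in control replicate 3. For IL1A, IL1B and CCL20 no difference was detectable at this depth, with exact 95% intervals of the control-to-gefitinib ratio from 0.512 to 1.51, 0.601 to 4.70 and 0.387 to 12.8.

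Of the 5 NF-kappa-B subunit genes, 4 fell and 1 rose. RELB, the subunit of the non-canonical route (chromosome 19, 45001430 to 45038198), had 102, 63.3 and 61.4 normalized reads with gefitinib, against 311, 296 and 309 in control libraries. All gefitinib libraries were below every control library, and the log2 difference was -2.04 ± 0.22 (SE; limma adjusted p = 6.3e-05). NFKB2, whose product p100 is the precursor of p52, had 676, 486 and 423 with gefitinib and 1074, 1310 and 1301 in controls (log2 difference -1.24 ± 0.17, limma adjusted p = 0.00027). NFKB1, which encodes the p50 precursor p105, averaged 537 ± 79.0 with gefitinib and 942 ± 8.95 in controls (SD, n = 3 each; log2 difference -0.82 ± 0.12). RELA, which encodes p65, fell least: 1698, 1538 and 1489 with gefitinib against 1788, 2266 and 2393, a log2 difference of -0.44 ± 0.12 with a limma adjusted p of 0.012, which was 0.054 without control replicate 2. REL, which encodes c-Rel, went the other way, with 516, 420 and 453 normalized reads with gefitinib and 358, 328 and 361 in controls (log2 difference 0.40 ± 0.12, limma adjusted p = 0.022). That rise did not pass with TMM factors (limma adjusted p = 0.053) or DESeq2 size factors (0.0549), nor with DESeq2 on recovered reads (0.051). With edgeR on recovered reads the adjusted p was 0.048 with the count filter and 0.062 without it. In limma, leaving out control replicate 2 gave 0.091, and leaving out gefitinib replicates 1 or 3 gave 0.0645 or 0.057.

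With gene length taken as all annotated exon bases of a gene, joined over its transcripts, the subunits were compared as reads per kilobase of exon. Their sum was 633, 527 and 495 reads per kilobase with gefitinib, against 846, 979 and 1009 in controls. RELA made up 52.5% ± 3.07 of that sum with gefitinib and 41.5% ± 2.48 in controls (SD, n = 3 each), and REL 6.39% ± 0.48 and 2.82% ± 0.34. The share of RELB was 4.45% ± 0.74 with gefitinib and 10.7% ± 1.21 in controls, and that of NFKB2 21.1% ± 2.43 and 28.96% ± 0.80. NFKB1 kept nearly the same share, 15.5% ± 0.54 with gefitinib and 16.02% ± 1.47 in controls. The shares of RELA, REL, RELB and NFKB2 did not overlap between the groups, while those of NFKB1 did; 3 libraries against 3 cannot reach an exact 2-sided permutation p below 0.1. Per kilobase, the REL level was 1.17, 1.53 and 1.70 times that of RELB in gefitinib libraries. In control libraries it was 0.265, 0.256 and 0.269 times, so on this scale their order was reversed. That reversal depends on the exon lengths used, 13170 bases for REL and 3035 for RELB. In normalized reads, REL lay above RELB in every library. Of the exon bases of REL, 13170 in all, 5702 are shared with the noncoding gene AC010733.2 on the same strand, so the level, share and ratio of REL are uncertain to that extent.

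**Figure D3:**
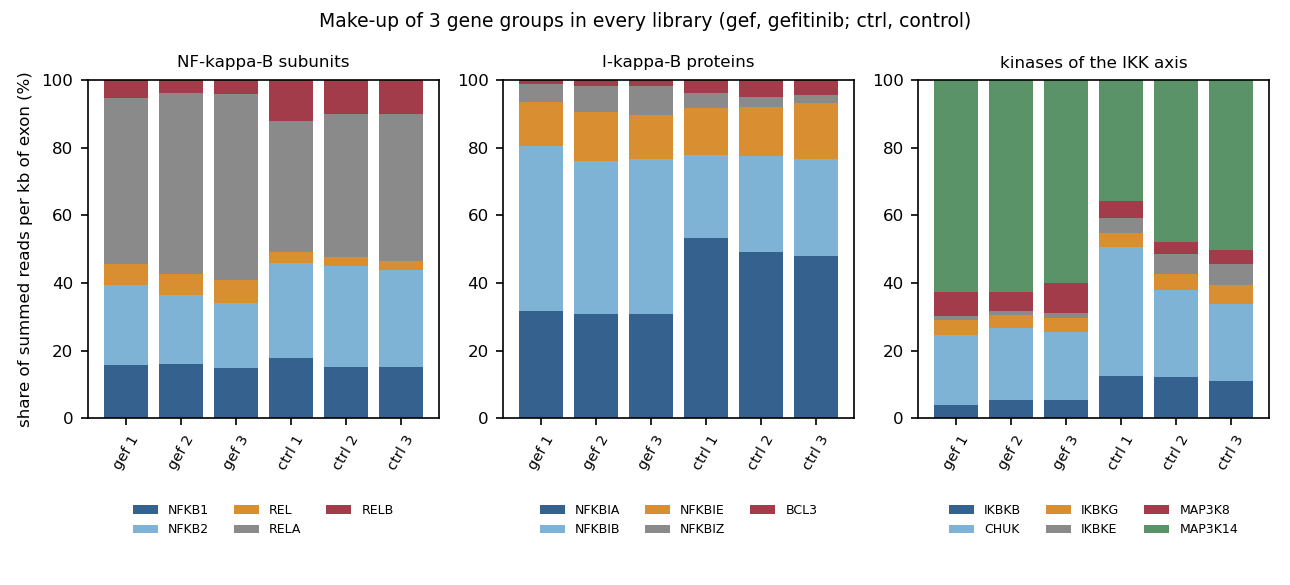
Share of each gene (y axis, percent of the summed reads per kilobase of exon) within its group. The groups are the NF-kappa-B subunits, the I-kappa-B family and the kinases of the IKK axis, the last together with IKBKG. Each library has 1 bar, with gefitinib libraries left of control libraries. RELA, NFKBIB and MAP3K14 take larger shares in every gefitinib library than in any control library, and RELB, NFKBIA and IKBKB smaller ones.

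Within the I-kappa-B family, NFKBIA, NFKBIE and BCL3 were lower, NFKBIZ was higher, and NFKBIB did not pass. NFKBIA, the I-kappa-B alpha gene (chromosome 14, 35401511 to 35404749), had 512, 449 and 439 normalized reads with gefitinib, against 1031, 1108 and 1081 in control libraries. The groups were far apart relative to their spread, with a log2 difference of -1.20 ± 0.10 (SE; limma adjusted p = 1.6e-05). BCL3, a nuclear cofactor of p50 and p52, had 29.1, 33.4 and 36.6 with gefitinib and 102, 153 and 134 in controls (log2 difference -1.93 ± 0.24). NFKBIE, the I-kappa-B epsilon gene, averaged 218 ± 17.4 and 353 ± 59.5 (SD, n = 3 each). NFKBIZ, the gene of the nuclear cofactor I-kappa-B zeta, had 205, 286 and 304 with gefitinib and 216, 165 and 130 in controls, so gefitinib replicate 1 lay below control replicate 1. Its limma adjusted p of 0.039 did not stand with TMM factors (0.059), with DESeq2 size factors (0.060), with a replicate block (0.0732), or without control replicate 2 (0.094) or 3 (0.11) or gefitinib replicate 2 (0.13) or 3 (0.13). NFKBIB, the I-kappa-B beta gene, averaged 684 ± 75.3 with gefitinib and 572 ± 92.8 in controls, a log2 difference of 0.27 with a 95% interval from -0.06 to 0.59. Per kilobase, NFKBIB stood at 1.54, 1.47 and 1.48 times NFKBIA in gefitinib libraries, against 0.461, 0.570 and 0.597 times in control libraries.

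Kinases of the IKK axis, counted together with IKBKG, whose product is not a kinase, moved in both directions, with 2 higher, 2 lower and 2 not passing. MAP3K14 encodes NIK, the kinase that starts the non-canonical route. It had 2674, 2342 and 2100 normalized reads with gefitinib, against 845, 1323 and 1480 in control libraries (log2 difference 1.00 ± 0.19, SE; limma adjusted p = 0.0020). Its exons share 713 bases with an antisense gene, MAP3K14-AS1, and without a stated strand setting their reads cannot be told apart. MAP3K8, which encodes the kinase TPL2, had 186, 130 and 188 with gefitinib and 72.7, 61.4 and 75.3 in controls (log2 difference 1.24 ± 0.22, limma adjusted p = 0.0011). IKBKB, the gene of the catalytic subunit IKK beta, fell to 336, 396 and 368 with gefitinib, against 572, 660 and 628 in controls (log2 difference -0.76 ± 0.12, limma adjusted p = 0.00056). IKBKE, which encodes the related kinase IKK epsilon, averaged 34.1 ± 4.86 with gefitinib and 98.8 ± 26.9 in controls (SD, n = 3 each; log2 difference -1.48 ± 0.28). Those that did not pass complete the core complex: CHUK (IKK alpha) had a log2 difference of 0.07 with a 95% interval from -0.23 to 0.38, and IKBKG (NEMO) of 0.28 with an interval from -0.32 to 0.87. Taken per kilobase, the 6 genes summed to 739, 645 and 604 with gefitinib and 408, 478 and 508 in controls, and MAP3K14 alone was 61.8% ± 1.51 and 44.7% ± 7.76 of that sum.

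Receptor adaptors held the widest spread among the regulators, from BIRC3 at -2.74 to TRAF6 at 1.92 log2 units, with 2 higher, 5 lower and 3 not passing. BIRC3, which encodes the ubiquitin ligase cIAP2 and is a known NF-kappa-B target, had 517, 363 and 320 normalized reads with gefitinib, against 3499, 2449 and 2122 in control libraries. Replicate 1 was the highest library in both groups, and the groups did not approach each other (log2 difference -2.74 ± 0.21, SE; limma adjusted p = 1.0e-05). TRAF3, which holds NIK for degradation, had 403, 347 and 331 with gefitinib and 1057, 1193 and 1219 in controls (log2 difference -1.68 ± 0.11, limma adjusted p = 5.4e-06). MYD88 and IRAK2, which carry signals of interleukin 1 and Toll-like receptors, were both lower (log2 differences -0.88 ± 0.11 and -0.78 ± 0.11). TRAF1 had 41 reads with gefitinib and 114 in controls, a depth-corrected control-to-gefitinib ratio of 3.32 (exact 95% interval 2.30 to 4.86).

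TRAF6 and RIPK1 went up. TRAF6, the ubiquitin ligase downstream of MYD88 and the IRAK kinases, had 548, 689 and 731 normalized reads with gefitinib, against 192, 153 and 170 in control libraries (log2 difference 1.92 ± 0.15, limma adjusted p = 1.2e-05). RIPK1, the kinase of the TNF receptor complex, had 977, 1135 and 1092 with gefitinib and 342, 349 and 296 in controls (log2 difference 1.70 ± 0.11, limma adjusted p = 4.8e-06); 238 of its exon bases are shared with an antisense gene. The groups did not overlap for either gene. Set against TRAF3 per kilobase, TRAF6 stood at 2.30, 3.37 and 3.75 times its level with gefitinib and at 0.308, 0.217 and 0.236 times in controls, and MAP3K14 at 9.47, 9.64 and 9.06 times with gefitinib and 1.14, 1.58 and 1.73 times in controls. The ratio of RIPK1 to BIRC3 per kilobase was 3.36, 5.55 and 6.07 with gefitinib, against 0.174, 0.253 and 0.248 in controls.

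TRAF2, RIPK2 and IRAK1 did not pass. TRAF2, a ubiquitin ligase adaptor of TNF receptors, had 291, 250.3 and 248 normalized reads with gefitinib, against 274, 419 and 496 in control libraries (log2 difference -0.55 ± 0.21, limma adjusted p = 0.054). Control replicate 1 alone lay among the gefitinib values, and without it the limma adjusted p was 0.00069. With all libraries TRAF2 was lower on recovered reads with edgeR (adjusted p = 0.015) and DESeq2 (0.0033), and in limma with TMM factors (0.023), DESeq2 size factors (0.024) and a mean of 10 or more (0.048). IRAK1 had 4911, 4701 and 4731 with gefitinib and 3526, 5169 and 5888 in controls, where control replicate 1 lay below every gefitinib library and the other controls above them. Its log2 difference was 0.01 ± 0.16 with all libraries and -0.21 without control replicate 1 (limma adjusted p = 0.026). RIPK2, the kinase of NOD receptors, had a log2 difference of -0.08 with a 95% interval from -0.31 to 0.14.

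**Figure D4:**
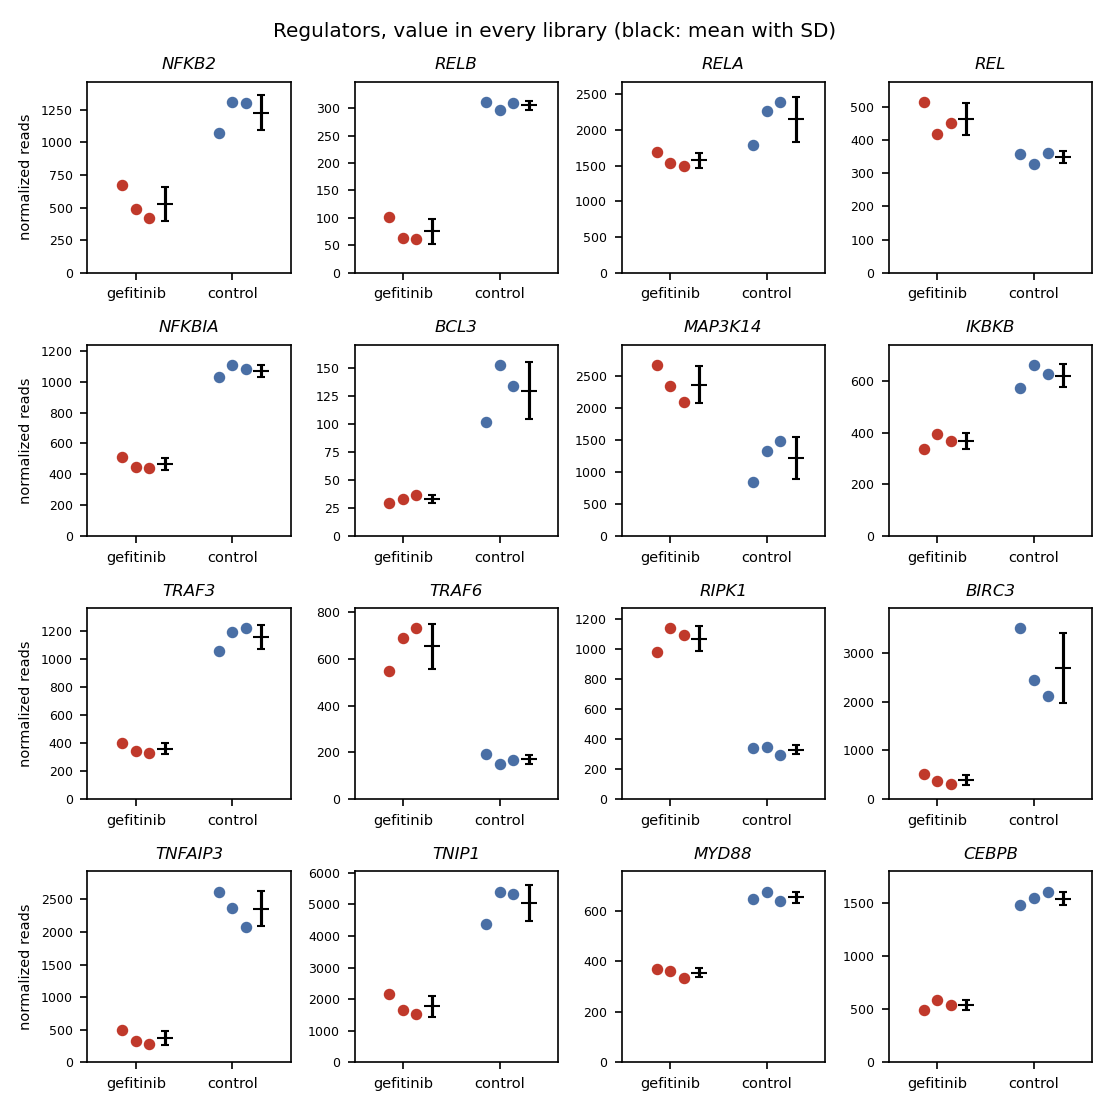
Normalized reads (y axis, from 0) of 16 regulators in every library, gefitinib left and control right, with the mean and SD of 3 libraries in black. In log2 differences BIRC3 (-2.74) and TNFAIP3 (-2.70) show the widest falls and TRAF6 (1.92) and RIPK1 (1.70) the widest rises among the genes plotted; the y axes differ between panels.

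Of the feedback inhibitors, TNFAIP3 and TNIP1 were lower, CYLD was higher and TNIP2 did not pass. TNFAIP3 (chromosome 6, 137867188 to 137883312) encodes A20, which edits ubiquitin chains to end the signal. It had 497, 330 and 286 normalized reads with gefitinib, against 2615, 2360 and 2082 in control libraries (log2 difference -2.70 ± 0.19, SE; limma adjusted p = 6.0e-06). TNIP1, whose product ABIN1 binds A20, had 2155, 1653 and 1533 with gefitinib and 4383, 5400 and 5327 in controls (log2 difference -1.51 ± 0.14, limma adjusted p = 2.3e-05). CYLD, a deubiquitinase, averaged 1068 ± 50.3 with gefitinib and 822 ± 76.6 in controls (SD, n = 3 each). Its log2 difference was 0.38 ± 0.10 with a limma adjusted p of 0.011, which was 0.052 without control replicate 2 and 0.053 without gefitinib replicate 2. TNIP2 (ABIN2) averaged 251 ± 22.5 and 264 ± 39.9, a log2 difference of -0.07 with a 95% interval from -0.43 to 0.30.

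The 2 C/EBP genes, whose products bind cytokine promoters together with NF-kappa-B, moved in opposite directions. CEBPB had 493, 585 and 541 normalized reads with gefitinib, against 1481, 1547 and 1610 in control libraries (log2 difference -1.52 ± 0.10, SE; limma adjusted p = 3.8e-06). CEBPD had 14, 27 and 62 reads with gefitinib and 8, 5 and 11 in controls. Its depth-corrected gefitinib-to-control ratio was 3.598 (exact 95% interval 2.29 to 5.87, limma adjusted p = 0.0046). CEBPB shares 231 exon bases with CEBPB-AS1 on the other strand. Even after these shifts CEBPD stayed far below CEBPB, at 0.0398 ± 0.0075 times its level per kilobase with gefitinib and 0.0042 ± 0.0015 times in controls.

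Of the 3 effector genes, ICAM1 and TNFAIP2 fell and PTGS2 did not pass. ICAM1, an adhesion molecule for leukocytes, had 378, 243 and 223 normalized reads with gefitinib, against 698, 809 and 881 in control libraries (log2 difference -1.53 ± 0.20, SE; limma adjusted p = 0.00018), and shares 815 exon bases with an antisense gene. TNFAIP2, a gene first known for its induction by TNF, averaged 4338 ± 347 with gefitinib and 9506 ± 2062 in controls (SD, n = 3 each; log2 difference -1.11 ± 0.15). PTGS2, the cyclooxygenase 2 gene, had 0, 3 and 1 reads with gefitinib and none in controls (log2 difference 0.81 ± 0.53, limma adjusted p = 0.23).

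The libraries of a group did not sit equally close to the other group. Among the 19 lower genes with a mean of 50 or more, gefitinib replicate 1 was the gefitinib library nearest the controls for 15 (78.9%), and control replicate 1 was the control library nearest the gefitinib libraries for 13 (68.4%). Over all 3042 lower genes at that level these libraries were nearest for 62% and 40.6%, so the lead of gefitinib replicate 1 was not confined to these genes. Control replicate 1 did not lead over all lower genes, where control replicate 3 was nearest for 41.9%. Of the 32 regulators, 8 were higher, 17 lower and 7 did not pass, with a median log2 difference of -0.62. The share that passed was 78.1%, against 51.1% of all tested genes. For the 30 regulators with a mean of 50 or more it was 76.7%, against 61.2% of all genes at that level. Of the 32 regulators, 7 were higher and 17 lower without gefitinib replicate 1, and 8 and 19 without control replicate 1. Without control replicate 2, 5 were higher and 16 lower, and with TMM factors 6 and 18. Over all tested genes, the main test gave 4312 higher and 3473 lower. These counts were 4121 and 3300 without gefitinib replicate 1, and 4582 and 4001 without control replicate 1. They were 3688 and 2867 without control replicate 2, and 3933 and 3799 with TMM factors.

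Another 144 genes of the pathway were listed by role, of which 136 were tested; 33 were higher, 46 lower and 57 did not pass, with a median log2 difference of -0.10. The share that passed was 58.1%, against 51.1% of all tested genes, and by list it was 75% of receptors, 53.1% of signalling partners, 52.2% of further inhibitors, 55.2% of further secreted factors and 57.1% of further targets, so that all but the receptors lay near the background. Receptor genes divided into 6 higher, 12 lower and 6 not passing. TNFRSF1A, the main TNF receptor, fell to 643, 614 and 480 normalized reads with gefitinib, against 1488, 1820 and 1894 in control libraries (log2 difference -1.58 ± 0.14, limma adjusted p = 2.0e-05). TNFRSF21, death receptor 6, averaged 1707 ± 70.3 with gefitinib and 11221 ± 251 in controls, and TLR4, the endotoxin receptor, 37.4 ± 8.32 and 259 ± 14.6 (SD, n = 3 each). The death receptor gene TNFRSF10A was also lower (log2 difference -1.36 ± 0.12).

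Signalling and ubiquitin partners divided into 8 higher, 9 lower and 15 not passing, with a median of 0.12. PELI1, a ubiquitin ligase of the IRAK and RIPK1 pathways, had 1690, 1622 and 1817 normalized reads with gefitinib, against 576, 453 and 474 in controls (log2 difference 1.78 ± 0.11, limma adjusted p = 3.6e-06). SPATA2, which ties CYLD to the ubiquitin machinery, and BTRC, the ligase subunit that recognises marked I-kappa-B, were higher by 0.96 ± 0.10 and 0.88 ± 0.10 log2 units, and the death adaptor FADD was lower (log2 difference -1.35 ± 0.13). Further inhibitors included 8 higher, 4 lower and 11 not passing. NKIRAS2 (kappa-B-Ras), COMMD1 and N4BP1 were higher by 1.46 ± 0.18, 1.26 ± 0.20 and 0.53 ± 0.08 log2 units, and IL1RN, the interleukin 1 receptor antagonist, was lower (log2 difference -0.95 ± 0.20).

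The 29 further secreted factors tested divided into 5 higher, 11 lower and 13 not passing, with a median of -0.70. CSF1, the macrophage growth factor, had 92.6, 85.8 and 83.4 normalized reads with gefitinib, against 336, 441 and 496 in controls (log2 difference -2.25 ± 0.18, limma adjusted p = 1.2e-05). TNFSF9, EDN1 (endothelin 1) and CXCL16 were lower, with log2 differences of -1.69 ± 0.14, -1.70 ± 0.15 and -1.14 ± 0.12. CXCL10, an interferon-induced chemokine named here after its values were seen, had 0, 1 and 3 reads with gefitinib and 56, 29 and 19 in controls, a depth-corrected control-to-gefitinib ratio of 31.0 (exact 95% interval 11.8 to 116). Of 28 further intracellular and surface targets 6 were higher and 10 lower. GCH1, the first enzyme of tetrahydrobiopterin synthesis, was higher by 1.98 ± 0.14 log2 units, while KLF6, the interferon gamma receptor gene IFNGR2 and the prostaglandin E synthase gene PTGES were lower, with log2 differences of -1.15 ± 0.09, -1.18 ± 0.10 and -1.11 ± 0.13.

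**Figure D5:**
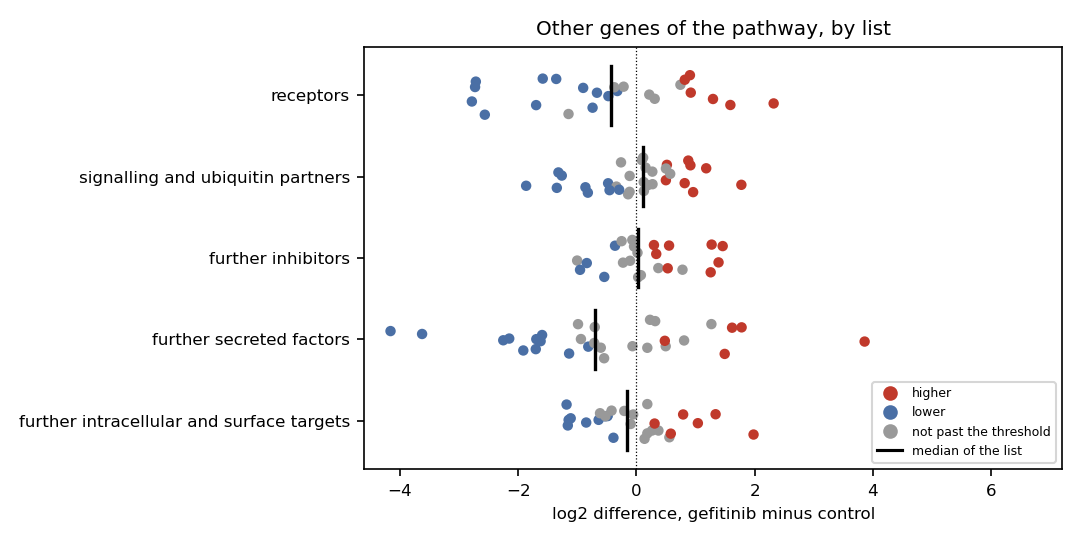
Log2 difference (x axis, gefitinib minus control) of the 136 further pathway genes tested, 1 point per gene in 5 lists, with a black bar at the median of each list; vertical scatter within a list has no meaning. Receptors and further secreted factors have medians below 0 (-0.42 and -0.70), and the other 3 lists lie near 0, between -0.15 and 0.12.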

How the data were processed

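The authors deposited a never-negative signal for coding genes: read counts scaled to a common total per library. STAR, HTSeq and GRCh38 stand in the submitters' processing notes, without versions; no source used here gives the strand setting. Dividing by the step of each library gave whole reads for 100% of non-zero values (tolerance 0.01 read). Another deposited table holds 6 per-sample columns that match no label and are not used.

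Samples were grouped by title. Of 15376 rows, 147 at 0 everywhere were left out. The test was 2-sided limma-trend (limma 3.58.1 under R 4.3.3), fitted to log2(value + 1), Benjamini-Hochberg over 15229 genes, threshold 0.05; that scale understates changes of low genes. In simulated reads with 200 genes changed, all expected at 50 reads or more, it recovered 64.2% of 1.5-fold and 86.6% of 2-fold changes. It recovered 100% of 4-fold changes, and 16 calls were false. The simulation changed far fewer genes than passed in the data, and none of the changed genes was low, so it cannot tell how the test does there. Genes averaging under 50 are given as recovered reads with exact 95% intervals (counting error only). Alternatives were pseudocounts of 0.5 and 5, a mean of 10 or more, TMM, DESeq2 size factors, edgeR 4.0.16 and DESeq2 1.42.0 on recovered reads, a replicate block and leaving out each library; edgeR with no count filter was added after the data were seen. With edgeR, 3707 genes of 12167 were higher and 3752 lower. Coordinates are from GENCODE release 29, promoters from RefSeq (GRCh38.p14).

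The genes and lists were chosen with earlier results of these data known. All 45 are accounted for; from each further list, up to 4 genes with the smallest p among those past the threshold and averaging 50 or more are named.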

Additional observations from a re-analysis of the deposited data

How the results depend on the processing

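Of the values of the 45 genes under the alternatives, 610 stayed on the same side of the threshold, 18 of them with the sign turned in 5 genes that did not pass (CCL20, CHUK, IL1A, IRAK1 and TNIP2); 36 of 8 genes (CXCL2, CXCL3, CSF2, TNF, REL, RELA, NFKBIZ and CYLD) lost their call, and 7 of TRAF2 gained one. IRAK1 ranged from -0.21, past the threshold without control replicate 1, to 0.16 without control replicate 3; the cause was not tested. Secreted factors numbered 1 higher and 5 lower; the count of higher ones was 0 with a mean of 10 or more, with edgeR, with DESeq2 and with edgeR without a count filter. The count of lower ones was 1 with a mean of 10 or more and with edgeR, where fewer genes were tested, and 3 with DESeq2 and with edgeR without a count filter. Leaving out a library gave 0 to 1 secreted factors higher, 2 to 5 lower, and 5 to 8 regulators higher. Over all tested genes it gave 3467 to 4582 higher and 2861 to 4001 lower. Depth limits 9 of the 10 secreted factors, which rest on few reads.

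Deviations of libraries with the same replicate number correlated at 0.05, 0.03 and 0.03, and those with different numbers at -0.05 to 0.03. Values this near 0 cannot show whether the numbers pair the libraries. A replicate block gave 4438 genes higher and 3552 lower among all genes, 7 regulators higher and 17 lower, and 1 secreted factor higher and 5 lower; of the 45 genes it changed the call of NFKBIZ alone.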
